A study of Homo sapiens with 9 samples.

Results

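The BCL2 family decides at the mitochondrial outer membrane whether a stressed cell lives or dies, and 10 of its genes were followed here in OVCAR4 cells after knockdown of MPZL3. The genes were taken by name from the 58735 genes of the OVCAR4 count table: the anti-apoptotic genes BCL2, BCL2L1, MCL1 and BCL2A1, the pore-forming effectors BAX and BAK1, and the BH3-only genes BCL2L11, BBC3, PMAIP1 and BID. OVCAR4 is an established human ovarian serous adenocarcinoma cell line, and its genotype label reads wild type and names no allele. RNA sequencing was carried out on 9 libraries, 3 of cells that carried a scrambled shRNA (scr control), 3 with shMPZL3 #1 and 3 with shMPZL3 #2. The hairpins were delivered by lentivirus, and all 3 groups were selected with puromycin. Each group is a bulk population of transduced cells, so that a lower level in every cell and fewer cells with the transcript cannot be told apart. Both shRNAs are compared with the same 3 scr control libraries.

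Anti-apoptotic members hold the effectors and the BH3-only proteins in check, whereas BAX and BAK1, once activated, form the pores through which cytochrome c leaves mitochondria and starts the caspase cascade. BH3-only proteins carry the stress signal, either by binding and occupying the anti-apoptotic members or by activating the effectors directly. In ovarian carcinoma, BCL-XL (the product of BCL2L1) and MCL1 are well known as survival proteins, and drugs that mimic the BH3 helix are aimed at them.

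The feature that joins these genes is the BH3 motif, the short helix with which one family member docks into the groove of another. The stretches that encode it are shown because survival and death members bind each other through it. Each is 30 bases of coding exon read from a GENCODE release 29 transcript on GRCh38, and the capitals mark the codon of the leucine and, 3 codons on, the pair of codons for a glycine or alanine and an aspartate. The protein translated from each transcript was searched for this pattern, leucine, any 3 residues, glycine or alanine, aspartate.
BCL2: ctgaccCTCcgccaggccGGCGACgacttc
BCL2L1: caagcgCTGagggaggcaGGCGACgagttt
MCL1: gagaccTTAcgacgggttGGGGATggcgtg
BAX: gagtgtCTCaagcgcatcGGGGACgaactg
BAK1: cggcagCTCgccatcatcGGGGACgacatc
BCL2L11: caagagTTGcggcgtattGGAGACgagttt
BBC3: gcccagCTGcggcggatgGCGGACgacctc
PMAIP1: actcaaCTCaggagatttGGAGACaaactg
BID: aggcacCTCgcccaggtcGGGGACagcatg

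The pattern was found once in 9 of the 10 proteins, and BBC3 is the member of these with the alanine codon (GCG) in place of a glycine codon. BCL2A1 held no match to these letters. The BCL2L11 stretch lies in exon 4 of BCL2L11-201 at chr2:111150097-111150126 on the plus strand, and the BID stretch in exon 4 of BID-201 at chr22:17739421-17739450 on the minus strand. The PMAIP1 stretch lies in exon 2 of PMAIP1-202 at chr18:59902667-59902696 on the plus strand. The BBC3 stretch lies in exon 3 of BBC3-203 at chr19:47226585-47226614 on the minus strand. Not every transcript of a gene encodes the stretch shown. The same residues from the leucine to the aspartate were found in 7 of 17 coding transcripts of BCL2L11, 4 of 11 of BID, 4 of 7 of BAX, 2 of 4 of BBC3 and 1 of 2 of PMAIP1, and counts per gene do not separate these transcripts. In BCL2L11 and BBC3 a further 2 transcripts each matched the looser letter pattern with other residues.

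Transcripts of MPZL3, at which the hairpins are aimed, were counted 403 to 648 times in libraries of scr control. This fell to 130 to 144 counts under shMPZL3 #1 and to 281 to 375 counts under shMPZL3 #2. Its log2 fold change was -2.17 (SE 0.16) with shMPZL3 #1 and -0.89 (SE 0.15) with shMPZL3 #2, so that the hairpins differed in depth of knockdown. Libraries held 15040102 to 27835841 counts, with mitochondrial genes at 7.155% to 8.649% of them. Among markers of OVCAR4 (PAX8, MUC16, EPCAM, keratins and others), all 9 were detected, of which WT1 did not pass the filter on low counts. With shMPZL3 #1, MUC16 was called lower (-0.61), and PAX8 (0.29) and KRT7 (0.35) higher. No marker of this list was called with shMPZL3 #2. The summed level of the 9 was 4944 to 5187 CPM (normalised counts per 1000000 counts of a library) in scr control, 5043 to 6196 with shMPZL3 #1 and 4977 to 6208 with shMPZL3 #2. The summed level of 7 fibroblast markers was 18.48 to 22.66 CPM, 42.57 to 61.99 CPM and 33.82 to 37.84 CPM in the same order, with DCN at 0 throughout. The sum of 6 leukocyte markers was 2.266 to 3.215 CPM in scr control and 3.796 to 6.668 CPM with shMPZL3 #2, and that of 4 endothelial markers 8.158 to 10.11 CPM and 12.5 to 16.17 CPM. With shMPZL3 #1 these sums were 3.822 to 5.274 CPM and 7.402 to 8.934 CPM. The part of these markers in the results for the BCL2 family was not tested.

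In scr control cells the 10 genes were led by the survival genes MCL1 and BCL2L1 (see the plot of levels per length). Values in TPM, transcripts per 1000000 computed from the counts and the gene length, put genes of different length on one scale. The length is the union of exons of a gene, and the order of BAX, BAK1, BID and BCL2L11 was another without it. MCL1 stood first at 339.4 TPM, with libraries from 329.6 to 346.2 TPM, and BCL2L1 second at 177.1 TPM, from 154.8 to 188.4 TPM. The effectors followed, BAX at 88.09 TPM (85.42 to 90.95) and BAK1 at 77.94 TPM (70.88 to 82.46), and then BID, at 72 TPM (67.28 to 77.91). BAK1 and BID were the only neighbours in this order whose scr control libraries overlapped. The other BH3-only genes were lower, BCL2L11 at 26.95 TPM, PMAIP1 at 11.3 TPM and BBC3 at 2.66 TPM. BCL2, the founding member, had 0.514 TPM, below all but 6.55% of the genes tested, and BCL2A1 had no count. MCL1 alone made up 42.67% ± 1.75 of the summed TPM of the 10 genes in scr control (SD, n = 3), 44.06% ± 3.58 with shMPZL3 #1 and 41.12% ± 2.38 with shMPZL3 #2.

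**Figure D1:**
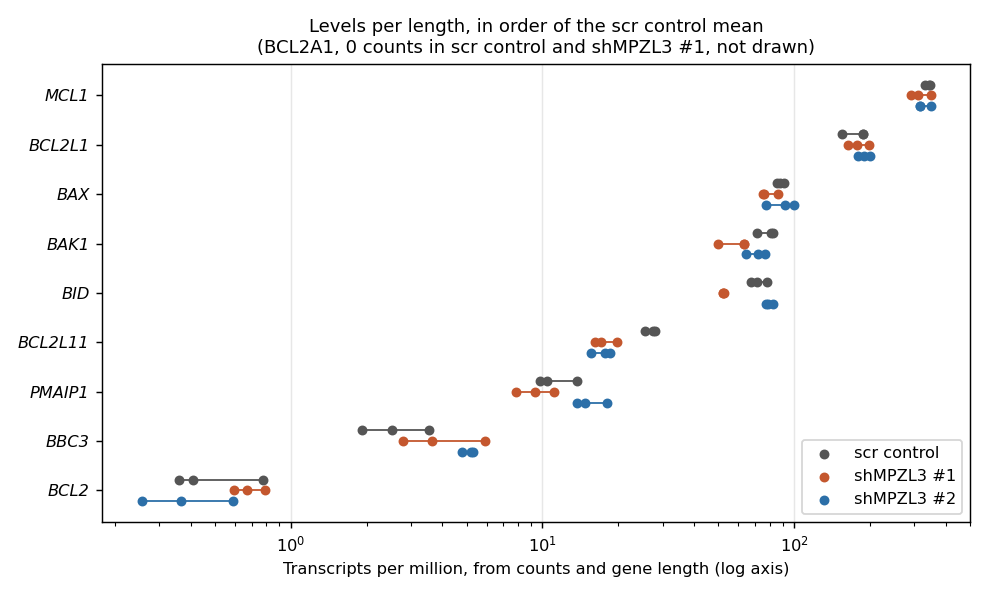
Levels of 9 BCL2 family genes in TPM (log axis) in each of 3 scr control, 3 shMPZL3 #1 and 3 shMPZL3 #2 libraries; points are libraries, lines join the lowest and highest of a group, and genes are in order of the scr control mean. MCL1 and BCL2L1 lie at the top in every group, BCL2 lies below 1 TPM, and the scr control points of BCL2L11 lie apart from all 6 knockdown points.

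The question put to these genes was whether any of them moved with MPZL3 knockdown, with both hairpins or with one. Of the 10 genes, 9 passed the filter on low counts and were tested, BCL2A1 being the exception. In the grouped comparison of 6 knockdown against 3 scr control libraries, 1 of the 9 was called lower at an adjusted p under 0.05 (BCL2L11), beside 6.4% of all 16928 genes tested. None was called higher by edgeR, against 9.36% of all genes, whereas 1 (BBC3) rose at an unadjusted p under 0.05. BBC3 was called higher by DESeq2 and not by limma-voom. The median log2 fold change of the 9 genes was -0.02, beside 0.02 over all genes tested. With shMPZL3 #1, 3 of the 9 were called lower (BCL2L11, BID and BAK1), where 15.3% of all genes were. No member was called higher with shMPZL3 #1 by edgeR, DESeq2 or limma-voom (all genes by edgeR, 16.8%), and 1 (BBC3) rose at an unadjusted p under 0.05. With shMPZL3 #2, 1 was called higher (BBC3, all genes 9.36%) and 1 lower (BCL2L11, all genes 5.8%). BCL2L11 was thus called lower with both hairpins, as were 3.53% of all genes.

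**Figure D2:**
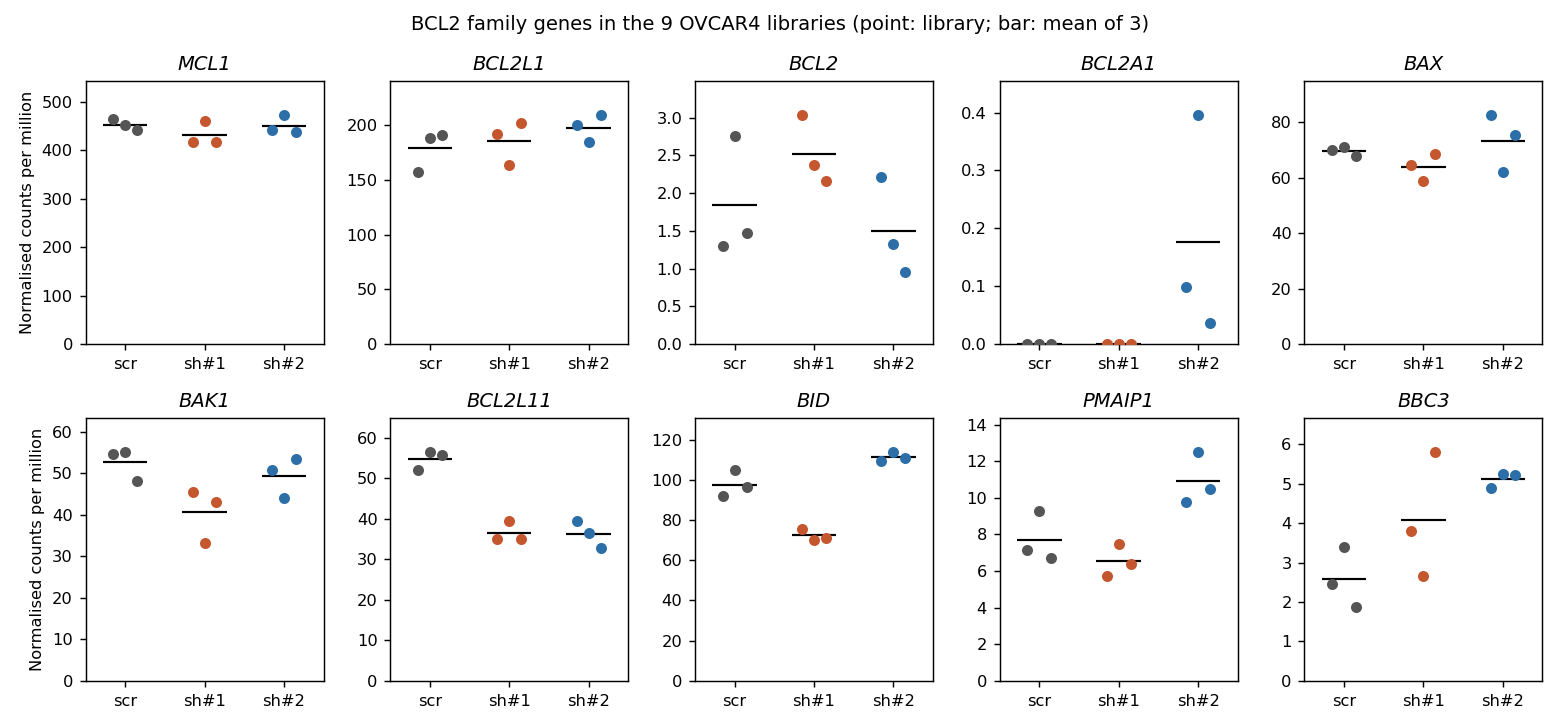
Normalised CPM of the 10 genes in each library (points) with the mean of 3 (bars); sh#1 and sh#2 stand for shMPZL3 #1 and shMPZL3 #2, and each panel has its own axis from 0. All 6 knockdown points of BCL2L11 lie below the 3 scr control points, while BID splits into low points with shMPZL3 #1 and high points with shMPZL3 #2.

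BCL2L11 (ENSG00000153094, chr2:111119378-111168447, plus strand) encodes BIM, a BH3-only protein that binds every anti-apoptotic member and can activate BAX and BAK1. Its scr control libraries had 52.0, 56.4 and 55.8 CPM. With shMPZL3 #1 the values were 35.1, 39.5 and 34.9 CPM, and with shMPZL3 #2 they were 39.5, 36.6 and 32.7 CPM. All 6 knockdown libraries lay below all 3 controls, as was the case for 11% of the genes tested (17.6% for shMPZL3 #2 alone). The grouped log2 fold change was -0.59 (SE 0.09, adjusted p = 0.001664), a change of -33.6%. The exact permutation test gave p = 0.0119, the smallest that 6 against 3 libraries allow. The fall was -0.59 (SE 0.11, adjusted p = 0.0005794) with shMPZL3 #1 and -0.60 (SE 0.11, adjusted p = 0.001038) with shMPZL3 #2. Between the hairpins the difference was -0.01, with a 95% interval from -0.236 to 0.215. MPZL3 itself fell further with shMPZL3 #1 (-2.17) than with shMPZL3 #2 (-0.89), and whether the depth of knockdown bears on BCL2L11 was not tested.

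The BCL2L11 locus is shared with MIR4435-2HG, a long non-coding RNA on the opposite strand, and the libraries carry no strand information. The exons of the 2 genes share 727 of the 6658 exon bases of BCL2L11, or 10.9%, and the long non-coding RNA had 4601 counts in all against 7663 for BCL2L11. MIR4435-2HG had 27.09 ± 1.88 CPM in scr control, 23.73 ± 0.787 CPM with shMPZL3 #1 and 24.22 ± 1.21 CPM with shMPZL3 #2 (SD, n = 3 each), a grouped log2 fold change of -0.18 (SE 0.10, adjusted p = 0.2356). With both genes counted as one, an alternative chosen after seeing the data, the grouped log2 fold change was -0.44 (SE 0.09, adjusted p = 0.005214). The genes whose log2 CPM followed BCL2L11 most closely over the 9 libraries were MTMR12, CTSV and ABLIM1, with Pearson's r of 0.973, 0.972 and 0.963. The 9 points include the difference between the groups, and no p is given.

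BID (ENSG00000015475, chr22:17734138-17774770, minus strand) links the death receptors to mitochondria, as caspase-8 cleaves it into an active fragment. It had 91.8, 104.7 and 96.5 CPM in scr control. With shMPZL3 #1 all 3 libraries were lower, at 75.6, 70.2 and 71.3 CPM, and with shMPZL3 #2 all 3 were higher, at 109.5, 113.8 and 110.7 CPM. The groups did not overlap in any pair, where 22.8% of all genes lay wholly below scr control with shMPZL3 #1, 18.7% wholly above it with shMPZL3 #2, and 15.4% wholly higher with shMPZL3 #2 than with shMPZL3 #1. BID fell with shMPZL3 #1 by 0.43 on the log2 scale (SE 0.09, adjusted p = 0.001872), whereas its value with shMPZL3 #2 was 0.19 (SE 0.09, adjusted p = 0.1818). The difference between the hairpins was 0.62 (SE 0.09, adjusted p = 0.0002911). In the grouped comparison the value was -0.09 (95% interval -0.449 to 0.271), which averages groups that lay on opposite sides of the control.

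PMAIP1 (ENSG00000141682, chr18:59899948-59904306, plus strand) encodes NOXA, a BH3-only protein that binds MCL1 and is a known target of the integrated stress response. Its values were 7.12, 9.28 and 6.69 CPM in scr control, 5.75, 7.50 and 6.40 CPM with shMPZL3 #1, and 9.76, 12.5 and 10.5 CPM with shMPZL3 #2. The shMPZL3 #2 libraries lay above all others, while those of shMPZL3 #1 overlapped scr control. Of all genes, 18.7% lay wholly above scr control with shMPZL3 #2, and 15.4% lay wholly higher with shMPZL3 #2 than with shMPZL3 #1. Against scr control the log2 fold change of PMAIP1 was -0.24 (SE 0.18, adjusted p = 0.3432) with shMPZL3 #1 and 0.49 (SE 0.18, adjusted p = 0.07514) with shMPZL3 #2. Between the hairpins it was 0.74 (SE 0.18, adjusted p = 0.01105). PMAIP1 and BID were the 2 of 9 members called higher with shMPZL3 #2 than with shMPZL3 #1, beside 7.56% of all genes, and no member was called lower by edgeR, DESeq2 or limma-voom, nor at an unadjusted p under 0.05 by edgeR.

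BBC3 (ENSG00000105327, chr19:47220822-47232766, minus strand) encodes PUMA, a BH3-only protein induced by FOXO factors. It was a gene of few counts, 28 to 143 per library. Scr control libraries had 2.46, 3.40 and 1.87 CPM, those of shMPZL3 #1 3.79, 2.66 and 5.80 CPM, and those of shMPZL3 #2 4.88, 5.24 and 5.23 CPM. The shMPZL3 #2 libraries were tightly grouped above scr control, whereas 1 shMPZL3 #1 library lay inside the range of scr control. Of all genes, 18.7% lay wholly above scr control with shMPZL3 #2. With shMPZL3 #2 BBC3 rose by 0.97 on the log2 scale (SE 0.28, adjusted p = 0.02894), but the adjusted p passed 0.05 when any of 4 libraries was left out. It was 0.1005 without the first scr control replicate, 0.1211 without the third, 0.06071 without shMPZL3 #2 replicate 1 and 0.08067 without shMPZL3 #2 replicate 3. With shMPZL3 #1 the value was 0.64 (SE 0.29, adjusted p = 0.09732). It was 0.87 (adjusted p = 0.02597) without shMPZL3 #1 replicate 2 and 0.305 (adjusted p = 0.489) without shMPZL3 #1 replicate 3. The hairpins differed by 0.32 (95% interval -0.245 to 0.892), from 0.10 to 0.66 as each library was left out. The grouped value was 0.82 (SE 0.28, adjusted p = 0.05974 by edgeR and 0.02683 by DESeq2).

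**Figure D3:**
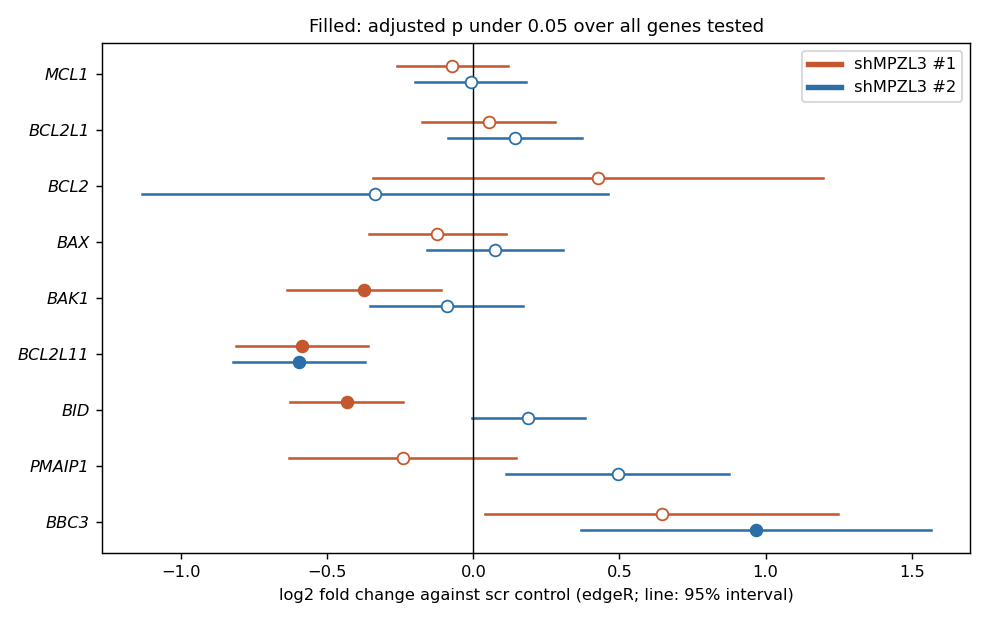
Log2 fold change of 9 BCL2 family genes against scr control for shMPZL3 #1 and shMPZL3 #2 (points, with 95% intervals as lines; filled where the adjusted p was under 0.05). BCL2L11 has filled points near -0.6 for both hairpins, BID and PMAIP1 have points on either side of 0, and the anti-apoptotic genes MCL1 and BCL2L1 lie close to 0.

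Of the effectors, BAK1 (ENSG00000030110, chr6:33572547-33580293, minus strand) sits in the mitochondrial outer membrane in healthy cells, and BAX (ENSG00000087088, chr19:48954815-48961798, plus strand) moves there from the cytosol on activation. BAK1 had 54.6, 55.1 and 48.1 CPM in scr control, 45.6, 33.2 and 43.0 CPM with shMPZL3 #1 and 50.8, 44.0 and 53.4 CPM with shMPZL3 #2. All 3 shMPZL3 #1 libraries lay below scr control, as was the case for 22.8% of all genes, and those of shMPZL3 #2 overlapped it. BAK1 fell with shMPZL3 #1 by 0.37 on the log2 scale (SE 0.12, adjusted p = 0.03001), and the adjusted p passed 0.05 when any of 3 libraries was left out. The value was then -0.35 (adjusted p = 0.09593) without the first scr control replicate, -0.34 (0.1097) without the second and -0.25 (0.1207) without shMPZL3 #1 replicate 2. With shMPZL3 #2 the value was -0.09 (95% interval -0.353 to 0.171). The difference between the hairpins, 0.28, had an adjusted p of 0.1377, so that BAK1 was not shown to differ between them. The pseudogenes BAK1P1 and BAK1P2, with 133 and 45 counts against 8785 for BAK1, could take a share of its reads.

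BAX gave no call. It had 69.8, 71.1 and 67.8 CPM in scr control, 64.4, 58.7 and 68.6 CPM with shMPZL3 #1, and 82.4, 61.9 and 75.4 CPM with shMPZL3 #2. The groups overlapped in every pair, and the grouped log2 fold change was -0.02 (95% interval -0.262 to 0.220, adjusted p = 0.9236). BAX passed the test in none of the 4 comparisons (adjusted p = 0.2499 or more).

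The anti-apoptotic genes gave no call in any comparison. MCL1 (ENSG00000143384, chr1:150574551-150579738, minus strand) encodes a short-lived protein that holds BAK1 and BIM. It had 464.5, 452.1 and 441.7 CPM in scr control, 416.0, 459.7 and 416.0 CPM with shMPZL3 #1, and 441.2, 471.9 and 437.1 CPM with shMPZL3 #2. These ranges overlapped, and with 6597 to 11942 counts per library the grouped interval was narrow, from -0.225 to 0.145 around -0.04. BCL2L1 (ENSG00000171552, chr20:31664452-31723989, minus strand) gives rise to the survival protein BCL-XL and, by alternative splicing, to the short form BCL-XS that promotes death, which these counts do not separate. Its values were 157.5, 188.6 and 191.0 CPM in scr control, 192.0, 163.4 and 201.9 CPM with shMPZL3 #1, and 199.8, 184.2 and 209.0 CPM with shMPZL3 #2, and its grouped log2 fold change was 0.10 (95% interval -0.126 to 0.324).

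BCL2 itself (ENSG00000171791, chr18:63123346-63320128, minus strand) was too scarce for a firm statement, with 20 to 68 counts per library. Its values were 1.29, 2.76 and 1.47 CPM in scr control, 3.03, 2.37 and 2.16 CPM with shMPZL3 #1, and 2.22, 1.33 and 0.952 CPM with shMPZL3 #2. The 95% interval of the grouped log2 fold change ran from -0.705 to 0.911, and the difference between the hairpins was -0.76 (SE 0.37, adjusted p = 0.1756). BCL2A1 (ENSG00000140379, chr15:79960889-79971446, minus strand), a survival gene induced by NF-kB in blood cells, had 0 counts in all scr control and shMPZL3 #1 libraries. It had 2, 8 and 1 counts with shMPZL3 #2, of which 1 library gave most. With the groups at 0 counts set to a floor of 3 counts, its summed level with shMPZL3 #2 was 2.79 times that in scr control. Against shMPZL3 #1 it was 3.43 times. The 11 counts with shMPZL3 #2 enter without their own counting error, so that these values are not lower limits. Both values rest on shMPZL3 #2 replicate 2, without which 3 counts remain, at the floor, and no fold can be given.

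Within a library, the balance of these transcripts can be read as a ratio of TPM values, given here as a description with no test. MCL1 to BCL2L11 gave 12.62 ± 0.861 in scr control (SD, n = 3), 17.98 ± 0.212 with shMPZL3 #1 and 19.01 ± 1.78 with shMPZL3 #2. TPM here rests on the union of exons of a gene, so that such a ratio does not count molecules. The highest scr control library, at 13.61, lay below the lowest knockdown library, at 17. BCL2L1 to BCL2L11 gave 6.557 ± 0.417 for scr control libraries, 10.3 ± 1.75 for shMPZL3 #1 and 11.05 ± 1.56 for shMPZL3 #2, again with no overlap between knockdown and scr control. Both ratios have BCL2L11 below the line and a survival gene with no call above it.

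When the chosen genes of each kind were summed, the hairpins parted. Other BCL2 homologues, taken up below, are not in these sums. The 4 anti-apoptotic genes together had 516.9 ± 15 TPM in scr control, 496.5 ± 24.5 TPM with shMPZL3 #1 and 516.8 ± 11.6 TPM with shMPZL3 #2. The 4 BH3-only genes had 112.9 ± 9.18, 83.31 ± 3.35 and 117.3 ± 5.37 TPM. The first sum was 4.591 ± 0.242 times the second in scr control, a ratio that reached 5.958 ± 0.0666 under shMPZL3 #1 and stood at 4.409 ± 0.119 under shMPZL3 #2, so that the shMPZL3 #1 libraries lay above all others and the shMPZL3 #2 libraries overlapped scr control. BID supplies most of the BH3-only sum, and among BH3-only genes BCL2L11 stood to BID as 0.3748 ± 0.0134 (scr control), 0.3375 ± 0.0339 (shMPZL3 #1) and 0.2176 ± 0.0221 (shMPZL3 #2). The effectors summed to 166 ± 8.79, 137.8 ± 12 and 160.4 ± 16.7 TPM, and the ratio of BCL2L1 to BAX was 2.011 ± 0.226, 2.267 ± 0.0828 and 2.127 ± 0.217.

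**Figure D4:**
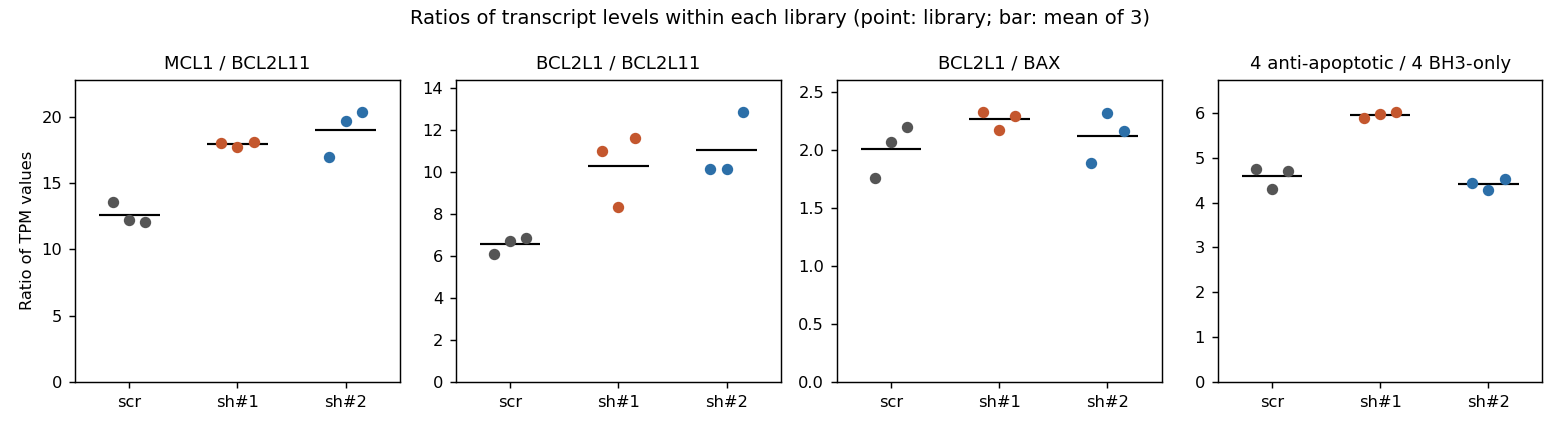
Ratios of TPM values within each library (points) with the mean of 3 (bars) for scr control, shMPZL3 #1 (sh#1) and shMPZL3 #2 (sh#2); each panel has its own axis from 0. MCL1 to BCL2L11 and BCL2L1 to BCL2L11 lie higher in all 6 knockdown libraries, BCL2L1 to BAX overlaps, and the ratio of anti-apoptotic to BH3-only sums is higher with shMPZL3 #1 and not with shMPZL3 #2.

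Around these genes, lists of the wider pathway were examined in the grouped comparison (see the plot of fold changes by list). Their counts stand beside 9.36% of all genes called higher and 6.4% called lower, and nothing particular to a list is read from 1 or 2 calls. Of 13 other BCL2 homologues, 2 rose, with a median log2 fold change of 0.27 beside 0.02 over all genes. They were BIK, a BH3-only gene, at 0.71 (SE 0.21, adjusted p = 0.03797), and BCL2L10, an anti-apoptotic gene with 97 counts in all, at 2.18 (SE 0.67, adjusted p = 0.0429). Of 13 genes of the apoptosome, the caspases and their inhibitors (median -0.04), 2 rose and 1 fell. BIRC3, an inhibitor of apoptosis and NF-kB target, rose by 2.10 (SE 0.36, adjusted p = 0.002495), and CYCS, which encodes the cytochrome c that BAX and BAK1 release, fell by 0.49 (SE 0.13, adjusted p = 0.02398). DIABLO, at 1.18, is uncertain, as its 482 counts are those of 1 of 2 genes listed under that symbol and it overlaps B3GNT4. Of 12 outer membrane partners and turnover genes (median -0.13), 1 fell, the channel gene VDAC3 (-0.41, SE 0.13, adjusted p = 0.04375). By hairpin, BIRC3 was called with both, and BIK with shMPZL3 #2 (0.89) but not shMPZL3 #1 (0.49, adjusted p = 0.07651). BCL2L10, CYCS and VDAC3 were called with shMPZL3 #1 (2.32, -0.62 and -0.57). With shMPZL3 #2 they were not (2.00, -0.38 and -0.26, adjusted p = 0.08272, 0.05148 and 0.1292). None of these genes was called between the hairpins.

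Known upstream regulators and their targets were read in the same way. Among 13 transcription regulators of the family, 2 rose (median 0.18). FOXO1, which activates BCL2L11 and BBC3 in other cells, was at 0.61 (SE 0.17, adjusted p = 0.02709), and DDIT3, a stress factor that overlaps the abundant gene MARS on the other strand, at 0.78 (SE 0.14, adjusted p = 0.003314). Of 13 NF-kB target genes, 12 rose (median 1.00), led by CXCL1 at 2.21, CXCL2 at 2.17 and BIRC3, which stands in both lists. By hairpin, CXCL1 was at 0.79 with shMPZL3 #1 and 2.91 with shMPZL3 #2, CXCL2 at 1.00 and 2.80, and BIRC3 at 2.06 and 2.13. Of the 13 genes, 5 were called higher with shMPZL3 #2 than with shMPZL3 #1 and 0 lower, beside 7.56% of all genes each way. That these genes are higher in these libraries was known when the list was taken up. BCL2A1, itself a target of NF-kB, had 0 counts with shMPZL3 #1, where 12 of these 13 genes were called higher as well. It did not pass the filter on low counts, and a link between it and these genes was not tested.

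**Figure D5:**
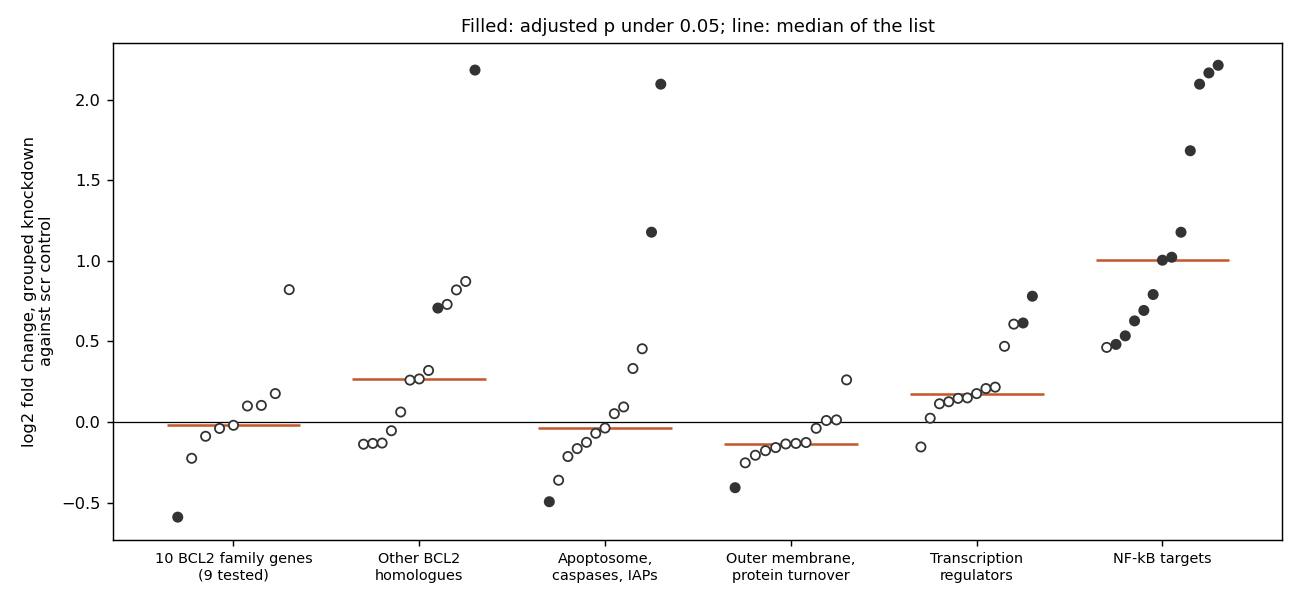
Grouped log2 fold change of each gene tested in the BCL2 family and 5 lists of related genes (points, filled where the adjusted p was under 0.05; lines, median of the list). The BCL2 family lies around 0 with BCL2L11 as its filled point, whereas 12 of 13 NF-kB target genes are filled and above 0.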

How the data were processed

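Raw counts per gene were deposited by the authors for 9 OVCAR4 libraries, 3 a group, not normalized and with each replicate kept apart. Libraries were poly-A selected and not strand specific. The submitters' processing notes name HISAT2 2.0.5, featureCounts 1.5.0-p3 and hg38, and the annotation is not given in the sources used here. All 58735 genes matched GENCODE release 29 in identifier, position and name. The deposited gene length, equal to the union of exons for all 10 genes, was used for TPM.

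Counts were analysed with edgeR 4.0.16 (quasi-likelihood test, two-sided, TMM factors 0.983 to 1.03, filterByExpr) in R 4.3.3, adjusted by Benjamini-Hochberg across all 16928 genes that passed, with calls at an adjusted p under 0.05. These genes held 99.85% to 99.88% of the counts. The grouped comparison was a fit of 6 knockdown against 3 scr control libraries, and the other 3 comparisons were contrasts of one fit of 3 groups. SE and intervals are those of this fit. Log2 CPM had a prior count of 2. Exact permutation tests of 3 against 3 libraries cannot go below p = 0.1. Alternatives were DESeq2 1.42.0, limma-voom 3.58.1, RLE and upper-quartile normalization, other filters, other fits, a replicate block, and leaving out each library in turn. The test was checked on simulated counts in which 200 genes were changed, alike with both hairpins for the grouped comparison. Of 73 genes changed 1.5-fold, 34 were recovered in the grouped comparison and 28 with shMPZL3 #1. Of 64 genes changed 2-fold, 49 and 44 were recovered. Among genes left unchanged, 5 of 16351 and 10 of 16387 were called. Many more genes were called in the real data, where the hairpins also differed, so that these rates need not hold there. Replicates differed by more than counting error in every pair within a group (chi-square per gene of 3.16 to 24.1).

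The members and the gene lists were chosen with earlier results of these data known. All 10 members and MPZL3 are named, of each list at most the 3 largest rises and 3 largest falls called in the grouped comparison, and the 3 protein-coding genes most correlated with a member called there or with both shRNAs. The result of 1 further gene list is not reported here.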

Additional observations from a re-analysis of the deposited data

Results flagged for a closer look

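PMAIP1 and BID differed between the hairpins by a test of the difference itself. For PMAIP1, shMPZL3 #2 minus shMPZL3 #1 was 0.7356 on the log2 scale (adjusted p = 0.01105 by edgeR's quasi-likelihood test), and 3 of 3 shMPZL3 #2 libraries lay above all 3 shMPZL3 #1 libraries. For BID it was 0.6209 (adjusted p = 0.0002911), with 3 of 3 libraries above, as was the case for 15.4% of all genes. Leaving out each library in turn gave 0.63 to 0.84 for PMAIP1 (adjusted p = 0.01224 to 0.03842) and 0.60 to 0.65 for BID (adjusted p = 0.0004356 to 0.002545). MPZL3 itself was higher with shMPZL3 #2 than with shMPZL3 #1 by 1.28 (adjusted p = 5.722e-05), and whether the depth of knockdown bears on these 2 genes was not tested.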

How the results depend on the processing

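BCL2L11 was called lower against scr control in the grouped comparison and with each hairpin under each of 18 alternatives, with grouped values from -0.63 to -0.44 (adjusted p = 6.856e-07 to 0.01777). BID with shMPZL3 #1, and BID and PMAIP1 between the hairpins, were called under each of 17. The number of members called higher in the grouped comparison went from 0 to 1, BBC3, with DESeq2, with no filter on low counts and with the mean of the 2 shRNA contrasts, and was 0 to 1 when each library was left out. The same counts over left-out libraries were 0 to 1 higher and 2 to 3 lower with shMPZL3 #1, and 0 to 1 higher with shMPZL3 #2. All-gene calls in the grouped comparison fell from 1584 higher and 1083 lower to 453 and 172 without scr control replicate 1, and were 2479 and 2198 with the mean of the contrasts. Without gene length, the ranks of BAX, BAK1, BID and BCL2L11 in scr control were 4, 6, 3 and 5. Several values with no call changed sign. BAX (grouped) was 0.0076 and MCL1 (shMPZL3 #2) 0.0109 with at least 10 counts in every library, and BCL2L11 between the hairpins 0.0053 when counted with MIR4435-2HG. Over left-out libraries, grouped values ran from -0.0999 to 0.5337 for BCL2 and -0.0867 to 0.0207 for BAX. With shMPZL3 #1, BCL2L1 ran from -0.0368 to 0.1380. With shMPZL3 #2, BCL2 (-0.34 with all libraries) ran from -0.7407 to 0.1027, MCL1 from -0.0470 to 0.0258 and BAX from -0.0327 to 0.1782, and BCL2L11 between the hairpins from -0.0922 to 0.0525. The cause of these changes was not tested.

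Replicate numbers are shared by the groups. Deviations of same-numbered libraries correlated at -0.001 to 0.218, and between the hairpins at 0.137, 0.218 and 0.097. Whether same-numbered libraries were prepared together was not tested. With the number as a block, all-gene calls with shMPZL3 #1 went from 2838 higher and 2585 lower to 3251 and 3104. Those with shMPZL3 #2 went from 1585 and 982 to 2083 and 1597. In the grouped comparison they fell from 1584 and 1083 to 1434 and 990. With the replicate number as a block, the members called higher with shMPZL3 #2 were 2, PMAIP1 (0.51, adjusted p = 0.02521) beside BBC3, and no other call on a member changed.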
